A study of Rattus norvegicus with 6 samples.

Results

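The genes of GABA and glycine signalling and of chloride transport were followed in rat cortical neurons given the complement protein C1q. The group was a list of 28 genes taken by name, out of 14506 genes with a probe set that names them alone. It held 12 GABA-A receptor subunit genes, 2 GABA-B and 4 glycine receptor subunit genes, and Gphn. The remainder were 3 genes of GABA synthesis and breakdown, 4 of transmitter transport and 2 of chloride cotransport. The list does not cover every GABA-A subunit or transporter gene. Each gene had 1 such probe set, and none shared its values with another probe set.

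All cells were cortical neurons of Sprague-Dawley rat embryos, isolated at embryonic day 18 and kept for 3 days in NB-N2 medium. The untreated group comprised 3 arrays with no agent, and the C1q group 3 arrays of cells exposed to C1q at 10 nM for 3 h. The labels number the arrays from 1 within each group and do not say whether the numbers mark separate cultures, so the p-values rest on a spread between arrays that may be only technical. Cells from embryonic cortex are of several types, and in bulk RNA fewer cells of a type and less RNA per cell cannot be told apart.

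GABA is the main inhibitory transmitter of the mature cortex, and glycine has that role in the spinal cord and brainstem. GABA-A and glycine receptors are pentameric chloride channels whose subunit composition sets kinetics, drug sensitivity and location at or away from synapses, whereas GABA-B receptors act through G proteins. In young neurons Slc12a2, the chloride importer NKCC1, keeps internal chloride high, so that GABA can depolarise the cell. Later the chloride exporter KCC2, encoded by Slc12a5, lowers chloride and GABA becomes inhibitory.

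The median intensity of an array was 147 to 155, and Pearson correlations of any pair of arrays over all probe sets were 0.991 to 0.996. All 13 general neuronal markers were above the filter on dim probe sets, which kept the brightest 60%, from an intensity of 94.4. Of 9 microglial markers 7 lay below it, among them Aif1, Itgam and P2ry12. Of the 8 astrocyte markers on the array 7 were above it and only Gfap was below. Of the radial glia markers 6 of 8 were above it, and of the oligodendrocyte lineage markers 6 of 7. So were 5 of 10 vascular and meningeal and 4 of 5 red blood cell markers. All 7 excitatory neuron markers on the array were above it too. Of 15 inhibitory neuron markers other than the GABA genes 13 were above it. Detection calls were not used, so a gene below the filter is called dim here and not absent. Intensities of different probe sets depend on their sequences and give no order of abundance between genes.

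In untreated neurons 22 of the 28 genes were above the filter, from Gabrd at 131 ± 10.6 to Gabbr1 at 3793 ± 137 (SD, n = 3 each). The 6 dim genes were Gabra6, Gabre, Gabrq, Glra1, Glra3 and Slc6a5, with untreated means of 10.6 to 61.6. After 3 h of C1q limma called 0 of the 22 genes at an adjusted p under 0.05, against 0% of the 17529 probe sets tested. At an unadjusted p under 0.05 there was 1, Gabrd, where 2.49% of all probe sets had such a value. Gabrd, the delta subunit of GABA-A receptors away from synapses, had the lowest fold change of the 22, at 0.822. For 19 of the 22 genes the 95% interval excluded changes of 1.2-fold or more in either direction, as it did for 69.8% of all probe sets tested. The exceptions were Gabrd, Gabrg1 and Gabrg3, which were among the dimmer of the 22.

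**Figure D1:**
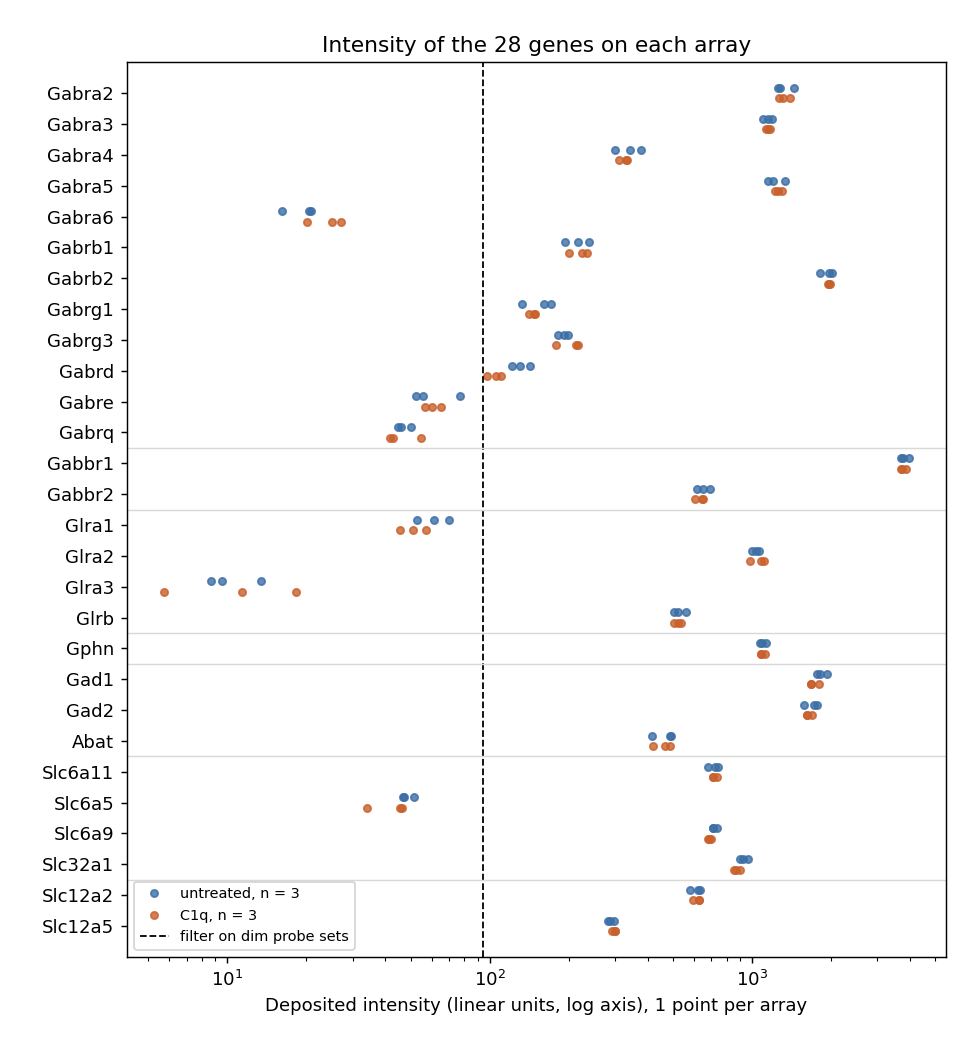
Deposited intensity of each of the 28 genes on the 6 arrays, on a log axis, with untreated arrays in blue, C1q arrays in orange and the filter at 94.4 as a dashed line. The 6 dim genes lie left of the line, and the colours overlap for most genes but are apart for Gabrd, Slc6a9 and the dim Slc6a5.

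Among the alpha subunit genes, whose products with a beta subunit form the GABA binding site, Gabra2, Gabra3 and Gabra5 were well above the filter. Gabra2, an alpha subunit of forebrain synapses, read 1441, 1258 and 1281 without C1q and 1312, 1398 and 1271 with it, in the order of array numbers used throughout. Both groups had nearly the same mean, and the fold change was 1.00, its 95% interval being 0.912 to 1.10, as given in brackets from here on. Gabra3, an alpha subunit typical of the developing cortex, read 1196, 1104 and 1151 untreated and 1170.1, 1152 and 1129.8 after C1q. Every C1q array fell inside the untreated range, with a fold change of 1.00 (0.928 to 1.08). Gabra5, whose receptors lie largely outside synapses, read 1336, 1200.3 and 1153 untreated and 1305, 1256 and 1219 after C1q. The C1q arrays again lay inside the untreated range, with a fold change of 1.03 (0.936 to 1.12).

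Gabra4, a partner of the delta subunit in forebrain receptors outside synapses, read 376, 301 and 341 untreated and 334, 330.4 and 309.9 after C1q. Untreated arrays 1 and 2 held the highest and the lowest of the 6 values, and the fold change was 0.962 (0.845 to 1.09). Gabra6, a subunit of cerebellar granule cells, was dim on all 6 arrays, at 19.2 ± 2.63 untreated and 24.1 ± 3.58 after C1q (SD, n = 3 each). No fold is given for the dim genes.

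The beta subunit genes on the list were Gabrb1 and Gabrb2. Gabrb2 read 2016, 1812 and 1961 untreated and 1948, 1980.1 and 1970.3 after C1q. Its C1q arrays were close together inside the wider untreated range, and the fold change was 1.02 (0.946 to 1.10). Gabrb1 read 239.9, 194 and 216 untreated and 225, 234 and 200.4 after C1q, with the extremes on untreated arrays 1 and 2 and a fold change of 1.02 (0.877 to 1.18).

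A gamma subunit is part of most GABA-A receptors at synapses, and the classical benzodiazepine response needs one. Gabrg1 read 171, 133 and 161 untreated and 141, 149 and 147 after C1q, and the C1q arrays lay inside the untreated range. Its fold change was 0.951 (0.812 to 1.11). Gabrg3 read 199, 182 and 192 untreated and 214, 218 and 179 after C1q. C1q arrays 1 and 2 were the highest and C1q array 3 the lowest of all 6, so the groups overlapped, and the fold change of 1.06 (0.918 to 1.22) was the highest of the 22. Its log2 fold change of 0.08 was 0.04 without C1q array 2 and 0.17 without C1q array 3. It was not the highest without C1q array 2, where Slc12a5 was at 0.05, or with array weights, where Gabra5 was at 0.12.

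Gabrd takes the place of a gamma subunit in receptors that carry tonic currents. It read 121, 142 and 129.9 on the untreated arrays and 111, 98.0 and 106 on the C1q arrays. Every C1q array was below every untreated array. The means were 131 ± 10.6 and 105 ± 6.37 (SD, n = 3 each), a log2 fold change of -0.28 with a standard error of 0.102, or 0.822-fold (0.704 to 0.960). The limma test gave an unadjusted p of 0.0178 and an adjusted p of 0.9999, so Gabrd did not pass. The adjusted p ranged from 0.0751, with array weights, to 1.000 over the alternatives in which it was tested.

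The other genes varied between arrays in another way than Gabrd. Of the 21 other tested genes 20 were highest on array 1 among the untreated arrays, while Gabrd was lowest there and highest on array 2. On C1q array 2 Gabrd had its lowest value of all, where the median of the 22 genes was 0.02 above their mean on the log2 scale. The 2526 other probe sets within 0.25 log2 units of the mean of Gabrd had median deviations from their own means of -0.02, 0.07 and 0.01 in the untreated group. In the C1q group these were -0.01, -0.03 and 0.01. Their highest and lowest arrays were thus those of Gabrd, whose own deviations were 0.25 and -0.22 on these arrays. The part of this array pattern in the Gabrd result was not tested.

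**Figure D2:**
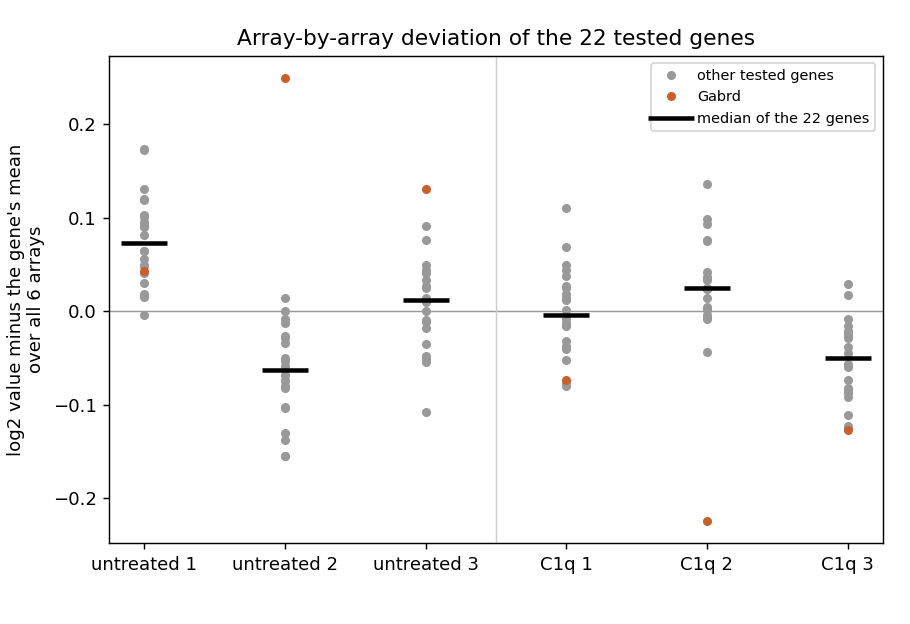
Log2 value of each tested gene on each array minus its mean over all 6 arrays, with Gabrd in orange, the other 21 genes in grey and the median of the 22 as a bar. The bars of the untreated group stand at 0.07, -0.06 and 0.01, and Gabrd runs from 0.25 on untreated array 2 to -0.22 on C1q array 2.

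The spread between untreated arrays went mostly one way for these genes. Untreated array 1 was the highest untreated array for 20 of the 22 genes and for 61.7% of all genes tested. Untreated array 2 was the lowest for 17 of the 22 and for 58% of all genes tested. Among C1q arrays, array 2 was the highest for 15 genes and array 3 the lowest for 16, against 53.1% and 50.9% of all genes tested. The coefficient of variation between untreated arrays had a median of 5.0% over the 22 genes, from 2.12% for Slc6a9 to 12.7% for Gabrg1, and of 6.51% over all probe sets tested.

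Gabre and Gabrq encode the epsilon and theta subunits, found mainly in hypothalamus and brainstem. Both were dim, at 61.6 ± 13.3 and 46.9 ± 2.73 untreated and 60.7 ± 4.28 and 46.4 ± 7.18 after C1q (SD, n = 3 each). Over the 9 tested GABA-A subunit genes, 6 means were higher and 3 lower after C1q, with a median log2 fold change of 0.00.

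Several of these subunit genes are neighbours in the RefSeq annotation of the GRCr8 assembly. No protein-coding gene of that table lies between Gabra6 and Gabrb2, yet Gabra6 was dim and Gabrb2 well above the filter. On the X chromosome Gabra3 lies between Gabre and Gabrq, with 1 other coding gene on either side, and Gabra3 alone of these 3 was above the filter. In the run of Gabrb1, Gabra4, Gabra2 and Gabrg1 all 4 genes were above it, as were Gabrg3 and its neighbour Gabra5.

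The 250 bases before the start site were compared in RefSeq promoters of GRCr8, which matched 25 of the 28 genes. A promoter is called CpG-rich here where over 50% of its bases are G or C and CG pairs reach over 0.6 of the number expected from base composition. This held for 13 of 20 genes above the filter and for 1 of 5 dim genes, Gabre. Over all genes it held for 65.5% of 8023 above the filter and 13.1% of 3928 below it, so the members' shares were near those of all genes. The letters TATAAA, on either strand, stood in the windows of Gabra3, Gad1 and Glra2, all above the filter, which is 3 of 20 members (15.0%) there and 0 of 5 dim members. Over all genes these letters stood in 6.29% of the windows above the filter and 21.3% of those below it, and in 11.2% of all 11951. Of the sequences shown, Gad1 and Gabrd are CpG-rich and Slc12a5 is not. Gabra3 and Gabra6 have no CG pair, though Gabra3 was above the filter and Gabra6 below it. Capitals mark CG pairs, and each window is written on the strand of its gene, 5′ to 3′. Gad1 is at chr3:75777202-75777451 (+), Gabrd at chr5:171252710-171252959 (-), Slc12a5 at chr3:174115583-174115832 (+), Gabra3 at chrX:155543871-155544120 (-) and Gabra6 at chr10:27327235-27327484 (-).
Gad1: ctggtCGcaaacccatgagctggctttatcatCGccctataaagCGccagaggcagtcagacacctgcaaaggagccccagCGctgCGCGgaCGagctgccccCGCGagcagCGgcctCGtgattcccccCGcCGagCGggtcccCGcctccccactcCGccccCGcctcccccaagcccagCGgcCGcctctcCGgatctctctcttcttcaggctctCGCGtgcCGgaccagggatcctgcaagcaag
Gabrd: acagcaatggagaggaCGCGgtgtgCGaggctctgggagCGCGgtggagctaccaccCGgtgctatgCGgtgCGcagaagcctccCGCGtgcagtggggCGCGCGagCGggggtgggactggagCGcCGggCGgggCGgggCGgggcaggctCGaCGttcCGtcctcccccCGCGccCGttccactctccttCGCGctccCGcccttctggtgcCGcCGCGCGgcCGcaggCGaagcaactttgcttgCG
Slc12a5: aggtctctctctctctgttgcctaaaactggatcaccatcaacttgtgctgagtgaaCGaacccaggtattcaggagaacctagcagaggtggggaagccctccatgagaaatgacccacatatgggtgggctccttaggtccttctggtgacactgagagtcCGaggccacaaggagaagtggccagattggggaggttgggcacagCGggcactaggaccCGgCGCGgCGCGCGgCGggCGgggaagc
Gabra3: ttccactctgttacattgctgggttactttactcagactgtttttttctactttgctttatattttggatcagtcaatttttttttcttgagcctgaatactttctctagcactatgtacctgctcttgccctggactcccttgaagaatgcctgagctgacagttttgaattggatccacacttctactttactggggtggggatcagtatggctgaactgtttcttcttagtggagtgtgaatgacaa
Gabra6: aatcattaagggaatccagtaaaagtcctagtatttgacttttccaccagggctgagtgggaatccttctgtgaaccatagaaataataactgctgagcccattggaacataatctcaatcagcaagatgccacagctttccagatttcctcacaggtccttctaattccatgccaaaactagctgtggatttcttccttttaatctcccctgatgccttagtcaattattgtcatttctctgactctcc
The windows hold 23 CG pairs for Gad1, 35 for Gabrd and 11 for Slc12a5. The ratio of observed to expected pairs was 0.835, 1.029 and 0.514 in that order. These are properties of the letters alone and were not set against the change after C1q.

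**Figure D3:**
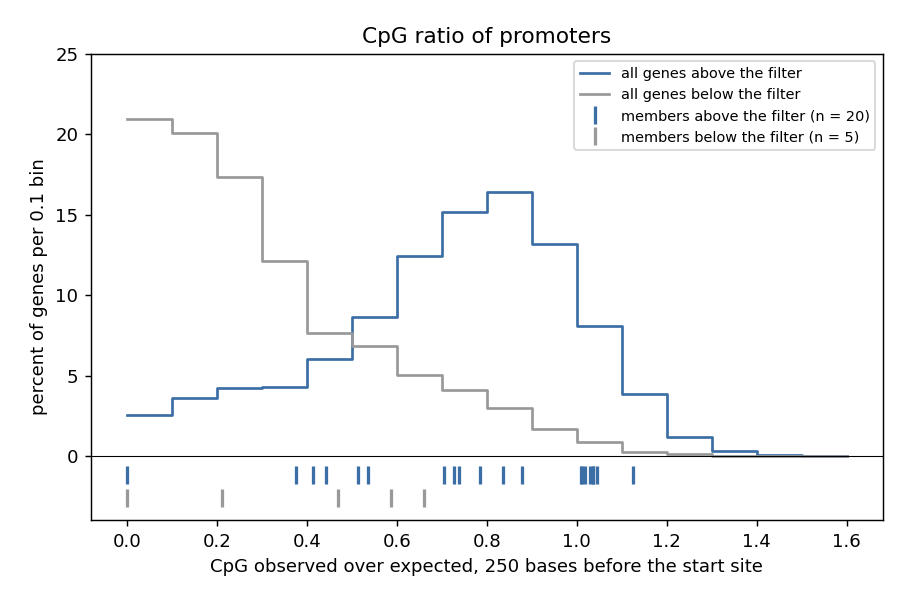
Ratio of observed to expected CG pairs in the 250 bases before the start site, as the percent of all genes per bin of 0.1, for genes above and below the filter, with ticks for the 25 genes of the list that had a promoter entry. Ticks of the 20 genes above the filter reach from 0.000 to 1.124, and those of the 5 dim genes from 0.000 to 0.661.

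GABA-B receptors are pairs of a subunit that binds GABA, from Gabbr1, and one that couples to the G protein, from Gabbr2. Gabbr1 read 3948, 3687 and 3745 untreated and 3692, 3871 and 3716 after C1q. The groups overlapped, with a fold change of 0.991 (0.927 to 1.06). Gabbr2 read 689.6, 618 and 648 untreated and 649, 644 and 606 after C1q, with overlapping groups and a fold change of 0.972 (0.886 to 1.07).

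Of the glycine receptor genes, Glra2 and Glrb were above the filter. Glra2, the alpha subunit that prevails before birth, read 1067, 995 and 1031 untreated and 1082, 1115 and 982 after C1q. C1q array 2 was the highest and C1q array 3 the lowest of the 6, and the fold change was 1.03 (0.939 to 1.12). Glrb, the beta subunit that binds gephyrin, read 558, 519.9 and 503 untreated and 520.0, 537 and 502 after C1q, with overlapping groups and a fold change of 0.987 (0.897 to 1.09). Glra1, the adult subunit of spinal cord and brainstem, and Glra3 were dim, at 61.3 ± 8.68 and 10.6 ± 2.54 untreated and 51.4 ± 5.83 and 11.8 ± 6.25 after C1q (SD, n = 3 each).

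Gphn encodes gephyrin, the scaffold that holds glycine receptors and many GABA-A receptors at synapses. It read 1094, 1075 and 1131 untreated and 1084, 1116 and 1080.2 after C1q. Its 6 values were within a narrow range in both groups, and the fold change was 0.994 (0.924 to 1.07).

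The genes that make and load GABA, Gad1, Gad2 and Slc32a1, had lower means after C1q, and none passed. Lower means were also found for 63% of all 9652 genes tested. Gad1 and Gad2 encode the 2 glutamate decarboxylases that make GABA. Gad1 read 1929.8, 1760.4 and 1818 on untreated arrays and 1678, 1807 and 1673 on C1q arrays, with means of 1836 ± 86.2 and 1719 ± 75.8 (SD, n = 3 each). C1q arrays 1 and 3 were below all untreated arrays and C1q array 2 lay between them, so the groups overlapped. The log2 fold change was -0.09 with a standard error of 0.052, and limma gave an unadjusted p of 0.0980 and an adjusted p of 0.9999. With single arrays left out it ranged from -0.13 without C1q array 2 to -0.06 without untreated array 1. Gad2 read 1763, 1575 and 1724 untreated and 1622, 1694 and 1622 after C1q. All its C1q values lay inside the untreated range, with a fold change of 0.977 (0.902 to 1.06). Its log2 fold change of -0.034 was -0.0020 without untreated array 1, -0.083 without untreated array 2 and -0.0075 with median centring.

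Slc32a1 encodes the vesicular transporter that loads GABA and glycine into synaptic vesicles. It read 965, 903 and 919 untreated and 869.7, 903 and 857 after C1q, with means of 929 ± 32.5 and 877 ± 23.9 (SD, n = 3 each). The groups overlapped only in that C1q array 2 was level with untreated array 2. The log2 fold change was -0.08 with a standard error of 0.052, at an unadjusted p of 0.143 and an adjusted p of 0.9999 in limma. With single arrays left out it ranged from -0.10 without C1q array 2 to -0.05 without untreated array 1. Abat, the transaminase that breaks GABA down, read 491, 416 and 485 untreated and 465, 485 and 419.7 after C1q, with overlapping groups and a fold change of 0.986 (0.872 to 1.11).

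Markers of inhibitory neurons stood beside these values as follows. Of the 13 tested, limma called 0, with 7 means higher and 6 lower after C1q, and their median log2 fold change was 0.00. Npy, a neuropeptide of cortical interneurons, read 1844, 1714.3 and 1841 untreated and 1640.2, 1671 and 1712.8 after C1q. Its groups did not overlap, though the nearest values, 1714.3 and 1712.8, were almost level. It was 1 of 13 markers with such separation towards lower values, against 4.42% of all probe sets tested. The other tested markers had overlapping groups, with fold changes from 0.968 for the calcium-binding protein gene Calb1 to 1.09 for the transcription factor gene Prox1. Calb2, another calcium-binding protein gene, and Reln, which encodes the secreted protein reelin, had fold changes of 1.06 and 1.07, and the neuropeptide gene Sst of 0.972. Whether the listed genes, Calb2, Reln and Prox1 among them, mark only inhibitory neurons in this culture was not tested. The summed intensity of the 15 markers was 16141 to 17130.2 on untreated and 16089 to 16710.2 on C1q arrays. Vip and Pvalb were dim. Limma also called 0 of the tested markers of other cells, 7 of excitatory neurons, 6 of radial glia, 6 of the oligodendrocyte lineage, 5 of vascular and meningeal cells, 4 of red blood cells and 2 of microglia. In that order the means were lower after C1q for 4, 5, 6, 3, 1 and 1 of them, beside 63% of all genes tested. The 8 radial glia markers on the array summed to 7932 to 8063 on untreated and 7582 to 7898 on C1q arrays, so these sums did not overlap. Among the tested radial glia markers themselves, 0 had groups apart. Of all these markers of other cells 3 had groups that did not overlap, the globin genes Hbb, Hbb-b1 and Hba-a3. Their C1q arrays were above the untreated arrays, with folds of 1.19, 1.16 and 1.12 and unadjusted limma p-values of 0.00334, 0.00844 and 0.0134. Over all tested probe sets 1.3% lay apart in this direction, and 2.49% had an unadjusted p under 0.05. The 5 red blood cell markers on the array, these 3 globin genes included, summed to 2748 to 3124 on untreated and 3170 to 3448 on C1q arrays. The markers other than globins did not share the higher values. Alas2 had overlapping groups and a fold change of 0.987, and the dim Slc4a1 had means of 49.4 untreated and 49.6 after C1q. Whether the share of inhibitory cells plays a part in the values of Gad1 and Slc32a1 was not tested.

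Slc6a9, the glycine transporter GlyT1, was the other tested gene whose groups did not overlap. It read 735, 709 and 708 on untreated and 682, 680.5 and 698 on C1q arrays, with means of 717 ± 15.2 and 687 ± 9.56 (SD, n = 3 each). The log2 fold change was -0.06 with a standard error of 0.053, at an unadjusted p of 0.268 and an adjusted p of 0.9999 in limma. Non-overlapping groups with lower C1q arrays were found for 2 of 22 genes, against 4.42% of all probe sets tested, and with higher C1q arrays for 0, against 1.3%. No test of this count was made.

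Slc6a11, a GABA transporter mainly of astrocytes, read 739.5, 679 and 720.4 untreated and 709, 737 and 707 after C1q, inside the untreated range, with a fold change of 1.01 (0.924 to 1.10). The 8 astrocyte markers on the array summed to 2017 to 2192 on untreated and 2095 to 2163 on C1q arrays, and of 7 tested limma called 0, with 6 means higher and 1 lower. Slc6a5, the glycine transporter of glycinergic neurons in brainstem and spinal cord, was dim, at 46.5, 51.3 and 47.0 untreated and 45.6, 46.5 and 33.9 after C1q. Its groups did not overlap, by a margin of under 1 intensity unit, and it was not tested. Such separation towards lower values was found for 6.32% of probe sets below the filter.

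Both chloride cotransporter genes were above the filter. Slc12a2, the importer, read 632, 579 and 625 on untreated and 626, 629 and 594 on C1q arrays, with overlapping groups. Its fold change was 1.01 (0.920 to 1.10), at an unadjusted p of 0.858 in limma. Slc12a5, the exporter, read 297, 288 and 283 on untreated and 301, 292 and 299.6 on C1q arrays. The spread within each group was small and the groups overlapped, with a fold change of 1.03 (0.925 to 1.14), at an unadjusted p of 0.586 in limma.

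The log2 value of Slc12a5 minus that of Slc12a2 on the same array was -1.05, -0.97 and -1.10 in the untreated group. In the C1q group it was -1.01, -1.07 and -0.95. The group means of this difference were -1.04 ± 0.066 and -1.01 ± 0.058 (SD, n = 3 each), closer together than the spread within either group. Its size reflects the 2 probe sets as well as the transcripts, so only its change can be read. For Gad1 minus Gad2 the difference was 0.13, 0.16 and 0.08 on untreated and 0.05, 0.09 and 0.04 on C1q arrays. Untreated array 3 and C1q array 2 crossed over, so the groups overlapped, at means of 0.12 ± 0.042 and 0.06 ± 0.027 (SD, n = 3 each).

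**Figure D4:**
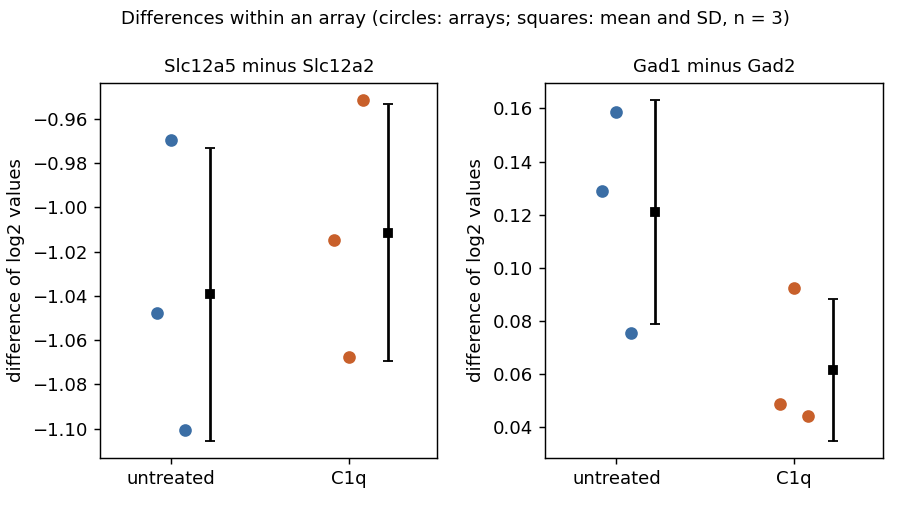
Difference of the log2 values of 2 genes on the same array, for Slc12a5 minus Slc12a2 on the left and Gad1 minus Gad2 on the right, with circles for arrays and squares for the mean and SD of each group (n = 3). The means are -1.04 and -1.01 on the left and 0.12 and 0.06 on the right, untreated and C1q, and the circles of both groups overlap in each panel.

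Over the 22 tested genes 12 means were lower and 10 higher after C1q, and the median log2 fold change was -0.01. Unadjusted limma p-values other than that of Gabrd ran from 0.0980 for Gad1 to 0.985 for Gabra3, and the adjusted p was 0.9999 for all 22. Over all 9652 genes tested 63% of means were lower, with a median of -0.02. The balance of 12 lower to 10 higher became 10 to 12 after quantile normalization and 8 to 14 after centring on array medians, and the share of lower means over all probe sets moved likewise, from 63.3% to 49.2% and 44.6%. Without untreated array 2 it was 18 to 4, without C1q array 2 it was 17 to 5, and without untreated array 1 it was 8 to 14, beside 68.9%, 67% and 49.7% of all probe sets. By role, the means were lower for 2 of 2 GABA-B genes, 3 of 3 genes of synthesis and breakdown and 2 of 3 tested transporter genes. They were higher for both chloride cotransporter genes. Slc12a2 turned lower with array weights, without untreated array 2 and without C1q array 2. The GABA-B gene Gabbr1 turned higher with either rescaling, and Abat, Glrb and Gphn with median centring. Gphn also did with quantile normalization. Each of Gabbr1, Abat, Glrb and Gphn also turned higher in a fit that left out 1 array.

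**Figure D5:**
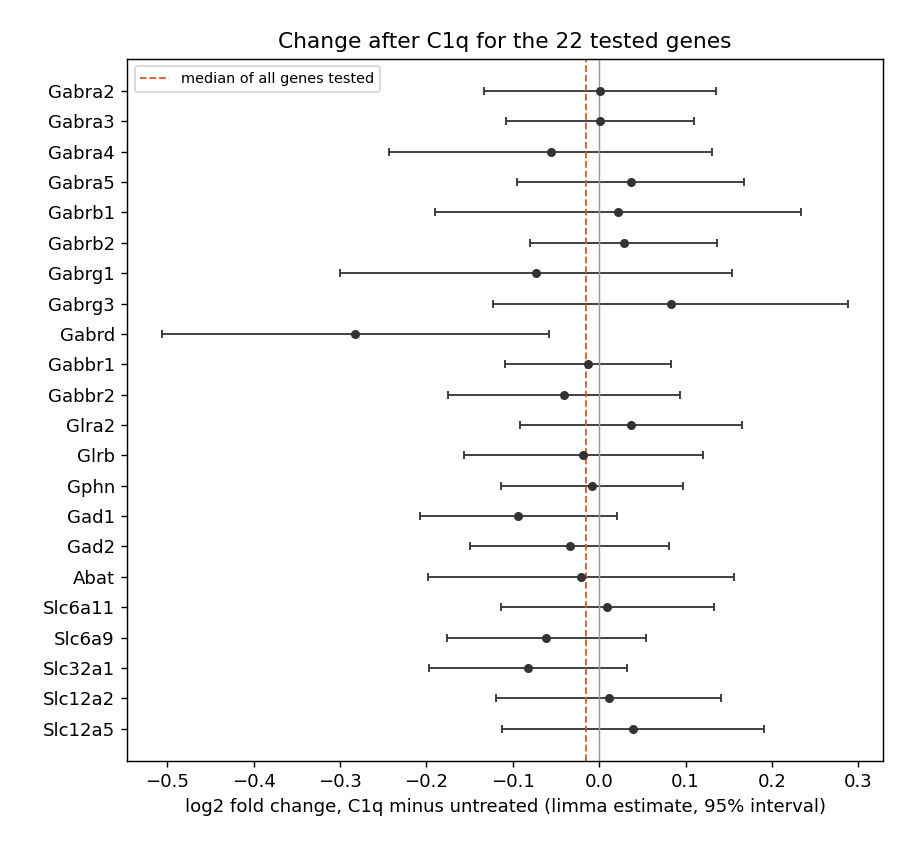
Log2 fold change of the 22 tested genes after C1q, as limma estimates with 95% intervals, with the median of all genes tested as a dashed line at -0.02. Every interval but that of Gabrd includes 0, and the other estimates lie between -0.09 and 0.08.

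Genes that work with the receptors and transporters were read in the same fit. Of 19 tested genes for anchoring, assembly and trafficking, limma called 0, with 11 means higher and 8 lower and a median log2 fold change of 0.00. Gabarap, which encodes a protein that binds gamma subunits and takes part in autophagy, read 3087, 2944 and 3007 untreated and 2810.0, 2707 and 2844 after C1q. Its groups did not overlap, and limma gave a log2 fold change of -0.11 with a standard error of 0.043, an unadjusted p of 0.0234 and an adjusted p of 0.9999. It was 1 of 19 with such separation towards lower values and 1 of 19 with an unadjusted limma p under 0.05. Over all probe sets tested these shares were 4.42% and 2.49%. The fold changes of Clptm1, which limits receptor export, and of Gabarapl1, a relative of Gabarap, were 0.958 and 0.953.

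Of 16 tested genes of GABA, glycine and glutamine metabolism limma called 0, with 7 means higher and 9 lower. Slc38a3, a glutamine transporter, read 255, 234 and 262 untreated and 199.7, 213 and 237 after C1q. The groups overlapped through C1q array 3, and limma gave a log2 fold change of -0.20 with a standard error of 0.088, an unadjusted p of 0.0451 and an adjusted p of 0.9999. It was 1 of 16 with an unadjusted limma p under 0.05, against 2.49% of all probe sets tested. Gldc, which encodes a part of the glycine cleavage system, and Shmt2, the mitochondrial enzyme that interconverts serine and glycine, had fold changes of 0.938 and 0.955. Of 18 tested genes of other chloride transporters and channels and their kinases limma called 0, with 6 means higher and 12 lower and a median log2 fold change of -0.01. The kinases Stk39 and Oxsr1, which act on these cotransporters, had fold changes of 0.950 and 0.964, and Clcn6, an endosomal chloride transporter, of 0.964.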

How the data were processed

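The authors deposited 1 linear intensity per probe set and array for 29215 probe sets. How they were summarised and normalized is not given in the sources used here. Per the labels' protocols, column-purified total RNA gave biotinylated cRNA by the Affymetrix procedure. Intensities were used as deposited, as log2(intensity + 16), a scale that understates the change of dim genes. The brightest 60% of probe sets by mean, 17529, were compared between 3 C1q and 3 untreated arrays in limma 3.58.1 (R 4.3.3), by lmFit and then eBayes, its prior variance following intensity. P-values were Benjamini-Hochberg adjusted over all of them, and calls needed an adjusted p under 0.05. Genes came from the platform annotation, with RefSeq (GRCr8) changing 0 of 15310 symbols, and promoters from RefSeq. The members and lists were chosen with earlier results of these data known. Every member was to be named, with up to 3 genes of smallest p from each related list and any marker. The fit was tested on simulated data. Alternatives covered scaling, filter, pseudocount, variance model, array weights, replicate block, left-out arrays and the choice of probe set. The number of arrays limits the precision, and signal over background is unknown.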

Additional observations from a re-analysis of the deposited data

How the results depend on the processing

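No gene of the list was called in any of the 17 alternative fits. The counts of probe sets called higher and lower, 0 and 0 as reported, were 130 and 317 with array weights, which gave untreated array 3 a weight of 5.51, 9 and 0 with the replicate block, and 0 and 1 without the filter. Over the fits with an array left out they ranged from 0 to 28 and from 0 to 10, and untreated array 2 was the one whose absence gave calls. Gabrd stayed lower in every fit that tested it, with log2 fold changes of -0.33 to -0.21, and it was below the filter that kept the brightest 40%. Its unadjusted limma p was 0.0525 without untreated array 2 and 0.0664 without C1q array 2, and under 0.05 in the other fits. The same-numbered arrays had correlations of deviations from their group means of 0.01, -0.45 and -0.13. Such deviations also hold the shifts of whole arrays, so these values cannot show whether the cultures were paired. The reported fit did not pair the arrays.

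Of 370 recomputed values of single genes 33 changed sign, the largest in size being 0.050. The changes of filter and variance model and the replicate block cannot alter a log2 fold change. Many of the 370 values therefore could not change sign. With median centring the changes of sign were Abat at 0.0058, Gabbr1 at 0.014, Glrb at 0.0083 and Gphn at 0.019. With quantile normalization these were Gabbr1 at 0.017 and Gphn at 0.0053. With array weights these were Glrb at 0.034, Slc12a2 at -0.0099 and Slc6a11 at -0.0085. Over the fits that leave out 1 array the log2 fold change was -0.095 to 0.036 for Abat, -0.034 to 0.016 for Gabbr1, -0.036 to 0.062 for Gabra2 and -0.028 to 0.029 for Gabra3. It was -0.14 to 0.017 for Gabra4, -0.0078 to 0.097 for Gabra5, -0.050 to 0.093 for Gabrb1, -0.016 to 0.060 for Gabrb2 and -9.2e-05 to 0.090 for Glra2. For the remaining genes with a change of sign it was -0.050 to 0.022 for Glrb, -0.024 to 0.012 for Gphn, -0.027 to 0.036 for Slc12a2 and -0.025 to 0.036 for Slc6a11. The median log2 fold change of the 22 genes was between -0.04 and 0.02 over these fits, less than 1 SD between arrays from the reported value. Detection calls were not used, so how far background limits the dim genes is unknown. Every gene had 1 probe set, so averaging probe sets per gene changed no value.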

Other observations

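Below the filter, a few genes of the related and marker lists had groups that did not overlap, and none of them was tested. Slc12a8, a member of the cation-chloride cotransporter family, read 61.5, 41.3 and 62.3 untreated and 68.9, 65.5 and 69.8 after C1q. Gabrp, which encodes the pi subunit of GABA-A receptors, known mainly outside the brain, read 38.0, 37.9 and 33.4 untreated and 48.5, 42.3 and 40.5 after C1q. Trem2, a microglial marker, read 58.7, 61.4 and 58.8 untreated and 64.3, 63.1 and 63.4 after C1q. Vip, an interneuron neuropeptide gene, read 31.4, 43.8 and 30.2 untreated and 23.9, 25.8 and 25.6 after C1q, lower on every C1q array. Among all 11686 probe sets below the filter, 2.75% were separated towards higher and 6.32% towards lower values. These genes were chosen after their values were seen.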
